A study of Homo sapiens with 12 samples.

Results

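The regions described here were those of MDA-MB-453 chromatin that were called open whenever doxycycline was present and never without it. Overlapping ATAC-seq peaks of 12 libraries on chromosomes 1 to 22 and X were merged where they shared 1 bp or more, which gave 166523 merged regions. Of these, 2165 (1.30%) held a peak in all 6 libraries with doxycycline and in none of the 6 libraries without it, and they are called Dox-only regions below. The regions were chosen by the presence or absence of a peak call in each library, so their number is a description and carries no test. The reverse pattern, a peak in all 6 libraries without doxycycline and in none with it, was found in 4 regions (0.00240%). The 2 counts are not matched for list length. The shortest lists were those of the untreated K303R line (39522 peak summits) and the untreated WT line (47190). The longest was that of Y537S with doxycycline and estradiol (133963). With lists of equal length 326 regions met the rule, and the reverse pattern was not counted there. At the edge of the rule, 431 regions had all 6 doxycycline libraries and 1 other, and 2671 had 5 of the 6 doxycycline libraries and no other. The extra peak of the 431 regions was low, with a median fold enrichment between 4.38 and 5.40 depending on the library that held it. Of the 2671 regions, 1705 lacked a peak only in K303R with doxycycline, and without that library the rule gave 3881 regions. Where only peaks with a −log10 q of at least 5 counted, 892 regions met it.

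MDA-MB-453 is an established human breast cancer line of luminal, androgen receptor-positive type that lacks estrogen receptor alpha (ER). Lines that inducibly expressed wild-type (WT) ER, the Y537S form or the K303R form were grown for 2 days and then kept for 2 more days untreated, with 1 nM estradiol (E2), with 2 ug/mL doxycycline (Dox), or with both (Dox+E2). Each combination of form and treatment was 1 library, so no difference below could be tested against replicates. The labels name neither a parental line nor an empty-vector line given Dox, and Dox itself and the ER that it induces cannot be told apart. They also do not say whether each line was 1 clone.

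ER is a nuclear receptor that binds DNA as a dimer at palindromic estrogen response elements, after E2 has changed the shape of its ligand-binding domain, and recruits coactivators that open chromatin, mostly at distal enhancers. Y537S lies in the ligand-binding domain and is known for hormone-independent activity in endocrine-resistant breast cancer, whereas K303R lies in the hinge region and is known for hypersensitivity to estrogen. ATAC-seq inserts adapters into open DNA with a transposase, so that a pile of fragments marks an accessible region.

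The deposited lists held between 39522 and 133963 peak summits per library. Column 7 of each list is the fold enrichment of fragments at the summit over background, and it corresponded to whole fragment pileups, the lowest listed being 3 to 5 per library. The peak names fell into 3 sets by their tag. The Dox and Dox+E2 libraries of WT carried 1 tag, the other libraries of WT and all of K303R another, and all of Y537S the third. If the tags mark separate runs, Dox and run cannot be told apart in WT, and ER form and run cannot be told apart in the comparisons of Y537S with the others or of WT with K303R under Dox. E2 was compared within 1 tag in each form. The peak names of the Y537S lists hold the word trypsin and do not name the ER form, which was taken from the sample titles. The titles do not say what that word stands for. Of 10 luminal genes, 7 had an open region within 1 kb of a gene end in all 12 libraries, and the luminal keratin gene KRT8 was among them. The basal keratin genes KRT5, KRT14 and KRT17 had one in none. Against that grouping, the basal gene CDH3 and the collagen gene COL1A1 had one in all 12.

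Sequence could be read only where a Dox-only region reached a RefSeq promoter window, defined as 250 bases before to 50 bases after a transcript start (GRCh38.p14). In all, 52 Dox-only regions did so, over 62 windows, and 18 of them reached the window of a protein-coding gene. The 5 windows printed here are those of the strongest Dox-only region at a promoter (SERPINA1), of 2 protein-coding genes whose windows held repeated AP-1 sites (CAPN2 and KCNMA1), and of the 2 regions with a full estrogen response element (LINC02465 and LINC01005). They are written 5′ to 3′ on the strand of the gene. Capitals mark matches to the full palindromic estrogen response element, the AP-1 site TGANTCA, the AP-2 site GCCNNNGGC and the GATA site AGATAA, each searched on both strands.

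The LINC02465 window lies at chr4:129771369-129771668 on the plus strand and holds 1 estrogen response element, at chr4:129771528-129771540, and 1 AP-1 site. LINC02466, a non-coding gene on the other strand, shares both sites.
LINC02465: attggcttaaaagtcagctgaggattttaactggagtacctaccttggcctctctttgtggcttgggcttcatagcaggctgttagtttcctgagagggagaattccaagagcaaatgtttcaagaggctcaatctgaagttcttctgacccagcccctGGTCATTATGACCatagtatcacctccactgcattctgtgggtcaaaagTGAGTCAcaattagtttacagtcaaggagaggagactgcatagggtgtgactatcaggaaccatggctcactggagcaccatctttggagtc
The LINC01005 window lies at chr7:64030053-64030352 on the minus strand and holds 1 estrogen response element, at chr7:64030166-64030178.
LINC01005: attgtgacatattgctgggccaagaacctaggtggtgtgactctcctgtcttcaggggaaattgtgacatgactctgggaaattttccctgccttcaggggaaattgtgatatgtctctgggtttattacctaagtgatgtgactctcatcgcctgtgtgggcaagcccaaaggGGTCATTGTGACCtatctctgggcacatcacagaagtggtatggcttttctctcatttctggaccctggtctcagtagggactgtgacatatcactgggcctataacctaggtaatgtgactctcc
The KCNMA1 window, of a large-conductance calcium-activated potassium channel gene, lies at chr10:77350712-77351011 on the minus strand and holds 2 AP-1 sites and 1 GATA site.
KCNMA1: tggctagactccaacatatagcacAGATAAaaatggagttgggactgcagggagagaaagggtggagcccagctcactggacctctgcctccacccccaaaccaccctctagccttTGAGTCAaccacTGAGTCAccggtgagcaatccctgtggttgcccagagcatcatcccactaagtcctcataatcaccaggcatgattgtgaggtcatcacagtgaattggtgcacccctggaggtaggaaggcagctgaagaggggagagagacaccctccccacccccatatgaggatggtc
The SERPINA1 window, of the alpha-1-antitrypsin gene, lies at chr14:94390586-94390885 on the minus strand and holds 1 AP-2 site.
SERPINA1: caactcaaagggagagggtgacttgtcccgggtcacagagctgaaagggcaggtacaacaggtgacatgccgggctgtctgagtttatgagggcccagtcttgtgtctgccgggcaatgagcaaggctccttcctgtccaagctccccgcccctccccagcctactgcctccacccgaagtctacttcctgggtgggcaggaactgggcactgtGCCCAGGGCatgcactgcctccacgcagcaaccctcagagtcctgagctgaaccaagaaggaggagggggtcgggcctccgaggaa
The CAPN2 window, of a calpain protease gene, lies at chr1:223701347-223701646 on the plus strand and holds 2 AP-1 sites.
CAPN2: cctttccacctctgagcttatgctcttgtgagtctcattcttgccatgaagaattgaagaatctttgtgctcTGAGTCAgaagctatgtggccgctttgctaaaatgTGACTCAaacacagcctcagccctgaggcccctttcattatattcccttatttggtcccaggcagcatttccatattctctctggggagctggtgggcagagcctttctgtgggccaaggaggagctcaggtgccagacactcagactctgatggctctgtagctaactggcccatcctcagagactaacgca

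The region over LINC02465 had a fold enrichment of 5.88 in WT Dox, 11.98 in WT Dox+E2, 23.3 in Y537S Dox, 25.7 in Y537S Dox+E2, 5.79 in K303R Dox and 9.23 in K303R Dox+E2. It was thus highest in both Y537S libraries and higher with E2 than without it in each form. The region over LINC01005 did not share this order, at 10.3, 6.39, 4.51, 5.13, 3.31 and 4.19 in the same 6 libraries, and was highest in WT Dox. Across all windows, 3 of the 62 in Dox-only regions (4.84%) held the full estrogen response element, against 20 of 34789 (0.0575%) of all RefSeq windows and 3 of 10801 in regions open in all 12 libraries. The 3 windows stand for only 2 regions. The AP-1 site was in 17 of 62 windows (27.4%), against 7.69% of all windows, 7.22% of windows in other regions and 3.97% of those in regions open in all 12 libraries. The AP-2 site was in 24.2% against 23.2% of all windows, but against 32.5% of windows in other regions and 32.7% of those in regions open in all 12. The GATA site was in 3 of the 62 (4.84%), against 10.4%, 6.69% and 3.90% in the same order. The forkhead site TGTTTAC was in 4 (6.45%), against 3.42%, 3.03% and 2.46%. Neither the androgen, glucocorticoid and progesterone receptor element nor the grainyhead-like site AACCGGTT was in any of the 62, but they were in only 0.391% and 0.132% of all windows, too few for a count of 0 in 62 to stand apart. A match describes letters and not a bound site. Matches were sought over whole windows, also outside the Dox-only region, as for the 2 AP-2 sites of the TTC39A window. In only 7 cases did a summit lie inside a window. The 17 windows with an AP-1 site can also stand for fewer regions. Windows of neighbouring transcripts overlap, and most Dox-only regions lie outside any window, so their sequence was not analysed here.

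The Dox-only regions were tall in Y537S and low in K303R. Their median fold enrichment was 7.35 in WT Dox (lowest 3.67, highest 39.0) and 8.78 in WT Dox+E2 (3.99 to 47.1). In Y537S it was 18.1 with Dox (3.76 to 105) and 17.6 with Dox+E2 (3.67 to 85.8). In K303R it was 5.79 with Dox (3.31 to 32.2) and 6.71 with Dox+E2 (3.36 to 29.4). These heights stood for median pileups of 23 fragments in each Y537S library, 9 and 10 in WT, and 6 and 7 in K303R. In K303R Dox, 1082 of the 2165 regions (49.98%) were within 2 fragments of the lowest pileup that list held, against 66 (3.05%) in Y537S Dox. Within its own list the median Dox-only region ranked at percentile 84.5 in Y537S Dox, 48.2 in WT Dox and 34.3 in K303R Dox. Regions open in all 12 libraries gave a reference within each library. Against their median the Dox-only regions stood at 0.960 in both Y537S libraries, 0.556 and 0.786 in WT without and with E2, and 0.412 and 0.444 in K303R. In Y537S, the Dox-only regions were therefore nearly as tall as regions open under every condition. The rule kept only regions that also held a peak in both other ER forms under Dox, where their medians were lower. The part of this requirement in their Y537S height was not tested. The value thus does not describe all regions that were open only with Dox in Y537S.

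**Figure D1:**
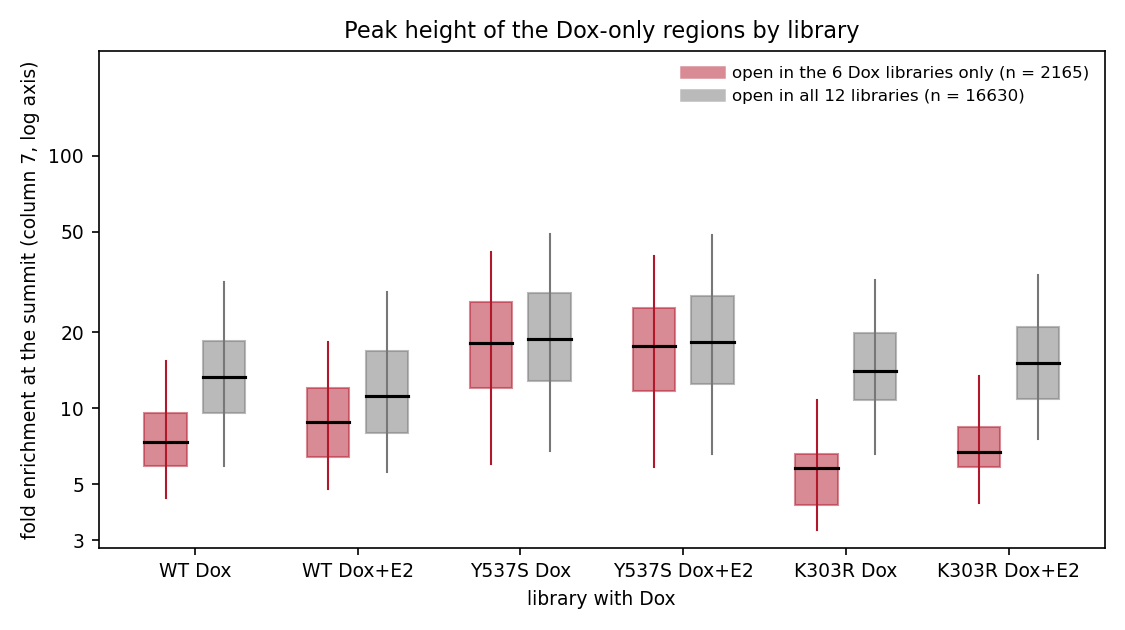
Fold enrichment at the summit (column 7, log axis) in the 6 libraries with Dox, for the 2165 Dox-only regions (red) and the 16630 regions open in all 12 libraries (grey); boxes run from the lower to the upper quartile, black bars mark medians and lines run from percentile 5 to percentile 95. The red median is 0.960 of the grey one in the Y537S libraries, at 18.1 and 17.6, and is lowest in K303R Dox, at 5.79.

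E2 added to Dox went with taller Dox-only regions in WT and in K303R and with no such shift in Y537S, and whether WT or K303R moved more depended on the scaling. Ratios were taken after dividing each library by its median over regions open in all 12 libraries, and are log2 of Dox+E2 over Dox. In WT the median over the Dox-only regions was 0.51, against 0.17 over all 33196 regions open in both libraries, a difference of 0.34 (1.27-fold). In K303R it was 0.18 against −0.08, a difference of 0.26 (1.20-fold). In Y537S both medians were 0.00. The ratio was exactly 0 in 7.21% of the Dox-only regions in Y537S, 1.34% in WT and 0% in K303R. Such ties are not counted as above 0. The ratio was above 0 in 1732 Dox-only regions (80.0%) in WT, where 61.8% of all regions were, in 1377 (63.6%) in K303R, where 46.5% were, and in 971 (44.8%) in Y537S, where 45.6% were. Past 2-fold higher were 446 (20.6%) in WT against 6.54% of all regions, 178 (8.22%) in K303R against 2.30%, and 18 (0.831%) in Y537S against 1.25%. Past 2-fold lower were 21 (0.970%) in WT against 1.75%, 29 (1.34%) in K303R against 2.57%, and 21 (0.970%) in Y537S against 1.18%. Scaling moves the medians of Dox-only regions and of all regions by the same amount, so the difference between them cannot show how far a level rests on it. Divided by the median of all peaks instead, the WT ratio had a median of 0.15 over the Dox-only regions and −0.19 over all regions, and the K303R ratio one of 0.26 and 0.00. The order of WT and K303R was then turned. The WT ratio was above 0 in 53.8% of Dox-only and 31% of all regions, and past 2-fold higher in 7.21% and 1.58%. In K303R these shares were 63.6% and 47.7%, and 8.31% and 2.42%. Without scaling, the medians of the Dox-only regions were 0.27 in WT and 0.28 in K303R. The unscaled shares above 0 were 65.3% and 43.7% in WT, and 77.0% and 60.6% in K303R.

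**Figure D2:**
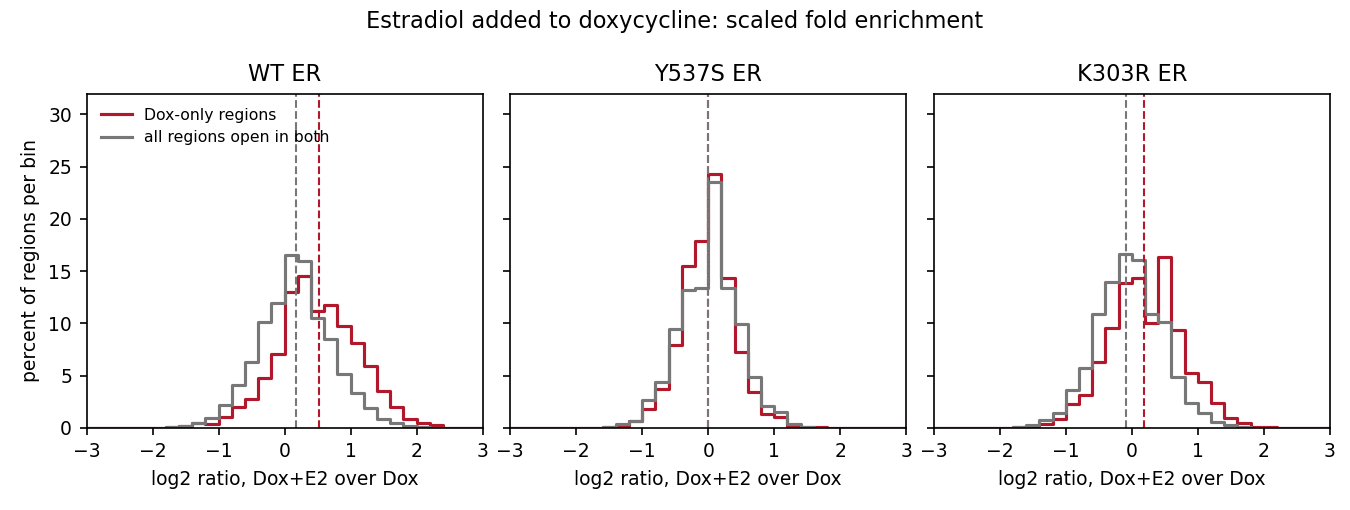
Distribution of the log2 ratio of Dox+E2 over Dox in each ER form, as percent of regions per bin, for the Dox-only regions (red) and all regions open in both libraries (grey); dashed lines mark medians. The red curve lies to the right of the grey one in WT (medians 0.51 and 0.17) and K303R (0.18 and −0.08) and overlies it in Y537S (both 0.00).

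The E2 ratio of WT and K303R was larger where a Dox-only region stood taller in Y537S without E2. Divided at the quartiles of height in Y537S Dox, the lowest regions (up to 12.04) had a median WT ratio of 0.19, the next (up to 18.1) 0.49, the next (up to 26.3) 0.61 and the tallest 0.85 (1.80-fold). The share above 0 went from 65.2% to 92.8%. K303R ran in the same order, at −0.08, 0.15, 0.28 and 0.50. Regions open in all 12 libraries, divided at the same heights, had WT medians of −0.10, 0.07, 0.13 and 0.16 and K303R medians of −0.08, −0.08, 0.00 and 0.02. The denominators were low throughout for the Dox-only regions. From the lowest to the tallest class their median fold enrichment was 6.61, 6.61, 7.35 and 8.82 in WT Dox. In K303R Dox it was 4.96, 4.96, 4.96 and 5.79. Regions open in all 12 went from 8.82 to 21.3 in WT Dox and from 11.6 to 20.7 in K303R Dox. The 2 sets were thus not matched in height without E2, and the part of this was not tested. The Y537S ratio itself went the other way, from 0.13 to −0.10, but its denominator is the value that ordered the regions.

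**Figure D3:**
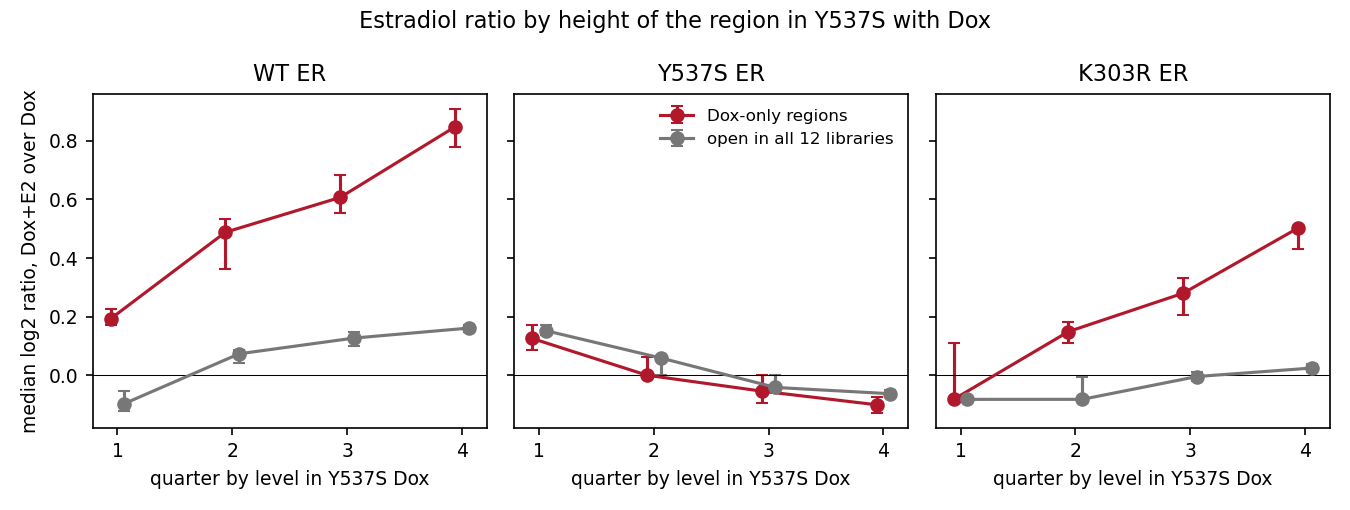
Median log2 ratio of Dox+E2 over Dox in each ER form by height of the region in Y537S Dox, from the lowest (1) to the tallest (4), with 95% binomial intervals of the median over regions. For the Dox-only regions (red) the WT medians run from 0.19 to 0.85 and the K303R medians from −0.08 to 0.50, while regions open in all 12 libraries (grey), divided at the same heights, end at 0.16 and 0.02.

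The order of the regions within a library showed the same pairing. Over the 2165 Dox-only regions, heights in Y537S Dox and WT Dox+E2 had a Spearman rank correlation of 0.635, and those in Y537S Dox and WT Dox had a correlation of 0.215. For K303R the correlation with Y537S Dox was 0.425 with E2 and 0.069 without. Within a form, the correlation between Dox and Dox+E2 was 0.877 in Y537S, 0.410 in WT and 0.342 in K303R. WT Dox and K303R Dox had a correlation of 0.430. These values describe regions that share libraries, depth and a common floor. Over the regions open in all 12 libraries the correlation with Y537S Dox followed the same order at higher values, at 0.762 for WT Dox+E2 and 0.663 for WT Dox, and at 0.612 and 0.543 for K303R with and without E2, so the order was not limited to the Dox-only regions. Few fragments lay under the K303R values, where a pileup of 6 has an exact 95% Poisson interval that reaches from 2.20 to 13.1, and the part of counting error in the low correlation was not tested.

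The direction of the E2 ratio was also counted over the 3 forms together. In 524 Dox-only regions (24.2%) the E2 ratio was above 0 in all 3 forms, against 15% of the 27590 regions open in all 6 Dox libraries. Divided by the median of all peaks, the shares were 17.4% and 7.86%. In 87 (4.02%) it was below 0 in all 3, against 9.48%. None was past 2-fold in all 3 forms in either direction. Of the 27590 regions 2 were past 2-fold higher and 0 lower, too few for that count to stand apart. Another 576 (26.6%) were higher with E2 in WT and K303R and lower in Y537S, against 14.6%. The shares above 0 in single forms, 80.0% in WT, 63.6% in K303R and 44.8% in Y537S, enter these joint shares. Whether direction was shared beyond what they give was not tested. The 5 regions whose smallest E2 ratio over the forms was largest were led by one inside SLC38A12. Its fold enrichments were 12.5 and 19.2 (WT), 27.8 and 46.2 (Y537S) and 7.44 and 14.3 (K303R) without and with E2. In each form the Dox+E2 value was above the Dox value. Another lay inside ARHGAP26, a GTPase-activating protein gene, with log2 ratios of 1.95 in WT, 0.78 in Y537S and 0.76 in K303R, but its pileups without E2 were 4, 6 and 4, near the lowest listed. The others lay inside CTCF, the gene of the insulator-binding zinc finger protein, within 34.2 kb of OGFRL1, and at a site on chromosome 18 with no protein-coding gene within 100 kb. These 3 were low without E2 too, with pileups of 6 each in WT Dox and of 4, 3 and 4 in K303R Dox. In the opposite direction, a region inside LEF1, a transcription factor gene of the Wnt pathway, had fold enrichments of 12.5 and 7.19 (WT), 18.8 and 12.5 (Y537S) and 9.92 and 5.87 (K303R) without and with E2. Each was lower with E2. It was 1 of 5 regions chosen for the lowest ratios, and the others lay inside TPP1 and BLTP3A and within 44.0 kb of ZNF736 and 3.58 kb of LLGL2.

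Between ER forms the Dox-only regions were ordered Y537S above WT above K303R. With Dox alone, the median log2 ratio of Y537S over WT was 0.75, against 0.05 over all regions open in both libraries, a difference of 0.70. With Dox+E2 it was 0.16 against −0.01, a difference of 0.17, which is 1.12-fold. K303R over WT had a median of −0.50 with Dox and −0.82 with Dox+E2, against −0.06 and −0.31 over all regions. K303R over Y537S had a median of −1.25 with Dox and −1.01 with Dox+E2, against −0.03 and −0.20. Past 2-fold higher in Y537S than in WT were 801 Dox-only regions (37.0%) with Dox against 10.6% of all regions, and 170 (7.85%) with Dox+E2 against 5.34%. Past 2-fold lower in K303R than in Y537S were 1299 (60%) with Dox against 12%, and 1091 (50.4%) with Dox+E2 against 16.2%. Past 2-fold lower in K303R than in WT were 438 (20.2%) with Dox against 4.19%, and 820 (37.9%) with Dox+E2 against 12.6%. In the opposite directions, 79 Dox-only regions (3.65%) were past 2-fold lower in Y537S than in WT with Dox against 6.82%, and 103 (4.76%) with Dox+E2 against 5.62%. Past 2-fold higher in K303R than in WT were 2 against 2.91% with Dox and 1 against 2.43% with Dox+E2, and than in Y537S 16 (0.739%) against 9.48% and 6 (0.277%) against 6.21%. Under each scaling tried the medians of the Dox-only regions kept these signs, but the shares moved. Divided by the median of all peaks, 53.3% were past 2-fold higher in Y537S than in WT with Dox against 19.7% of all regions, and 41.1% with Dox+E2 against 30.3%. Past 2-fold lower in K303R than in WT were then 8.55% against 1.48% with Dox, and 6.24% against 1.21% with Dox+E2. Unscaled, 75.6% were past 2-fold lower in K303R than in Y537S with Dox, against 24.4%. A peak was required in every Dox library, and where peaks were near the lowest listed pileup, as in K303R, a lower value could not have been kept.

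The regions with the most extreme ratios between forms included ones tallest in Y537S, in K303R and in WT. A region 3.73 kb from RBPMS2, an RNA-binding protein gene, had fold enrichments of 66.2 and 60.9 in the Y537S libraries without and with E2, 4.41 and 19.2 in WT, and 3.31 and 5.87 in K303R. In WT it was 5.14-fold higher with E2 after scaling, but its pileups were 5 in WT Dox and 3 in K303R Dox, near or at the lowest listed. A region inside SLC7A11, the gene of the cystine and glutamate exchanger, was instead tallest in K303R, at 10.7 and 10.1, against 5.15 and 3.99 in WT and 4.51 and 5.87 in Y537S. Another on chromosome 8, with no protein-coding gene within 100 kb, reached 19.0 in K303R Dox and 4.51 in Y537S Dox. A region inside ABHD2, a gene of the estrogen response list, was taller in WT, at 11.8 and 13.6. It was at 4.51 and 5.87 in Y537S and at 5.79 and 6.71 in K303R. In Y537S Dox the SLC7A11, chromosome 8 and ABHD2 regions each had a pileup of 5, near the lowest listed of 4. Of all Dox-only regions, 768 were highest in Y537S Dox and 674 in Y537S Dox+E2 after scaling, 474 in WT Dox+E2, 190 in WT Dox, and 30 and 29 in the K303R libraries. Unscaled, 1094 were highest in Y537S Dox and 856 in Y537S Dox+E2. WT Dox+E2 then held 47 and WT Dox 115, so the order of those WT libraries turned. It was also turned when the median of all peaks was used, at 41 and 139. No such count was made over other regions, so these counts have no background beside them.

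The 10 strongest regions were ranked by their lowest percentile over the 6 Dox libraries, which is a measure that the choice of regions shares. The strongest lay 31.04 kb from CACNG4, which encodes an auxiliary subunit of calcium channels and AMPA receptors. It had fold enrichments of 28.7 in WT Dox, 24.7 in WT Dox+E2, 68.5 in Y537S Dox, 57.9 in Y537S Dox+E2, 21.5 in K303R Dox and 21.0 in K303R Dox+E2. Y537S was highest, and E2 moved no form by 2-fold. The second lay inside PLXNA2, a semaphorin receptor gene, at 22.05, 31.1, 59.4, 60.1, 19.8 and 29.4 in the same order. It was higher with E2 in WT and K303R and level in Y537S. A region 9.60 kb from TRPC6, a receptor-operated cation channel gene, stood at 39.0, 27.9, 70.7, 66.7, 32.2 and 20.1. After scaling it was lower with E2 in WT and K303R and level in Y537S (0.968-fold). The region inside OTUD7B, a deubiquitinase gene, stood at 22.05, 20.8, 54.2, 61.6, 19.8 and 20.1. The other 6 of the 10 lay at SERPINA1, FAM13C, CD34, KCNK1, PPP1R26 and LOC124901498, and their lowest percentiles were between 85.6 and 87.9. Only 4 of the 2165 regions were above percentile 90 in every Dox library, and 226 were above percentile 50.

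The Dox-only regions had a median merged width of 717 bp (95% binomial interval of the median 702 to 730, range 225 to 3130). Regions open in all 12 libraries had a median width of 1178.5 bp, and regions open in another set of 6 libraries one of 416 bp. Merging more and deeper lists widens a region, and the mean width of the Dox-only regions' own peaks had a median of 435 bp. Width went with height: over 4 classes of the lowest percentile, from low to high, the medians were 623, 715, 733.5 and 843.5 bp. The summits of the 6 libraries spanned a median of 187 bp, against 137 bp over the Dox libraries for regions open in all 12. In Y537S Dox, 42.9% of the Dox-only regions held 2 or more summits, against 28.0% in WT Dox and 13.3% in K303R Dox. The 3 widest lay 3.88 kb from SOCS1, a cytokine signalling inhibitor gene (3130 bp), 0.317 kb from WDR45B (2970 bp) and 20.6 kb from ZNF736 (2570 bp).

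Along the genome, 870 Dox-only regions (40.2%, exact 95% binomial interval 38.1 to 42.3) had another within 100 kb. They formed 340 groups, 232 of 2 regions, 70 of 3 and 38 of 4 or more. The median distance to the nearest other Dox-only region was 182 kb. Of the 2671 regions that lacked 1 of the Dox libraries, 42.5% had another of their kind within 100 kb, and of the 16630 regions open in all 12 libraries, 83.8%, shares that also depend on how many regions there are. No random placement was made. Dox-only regions were 2.17% (1.77 to 2.64) of all regions on chromosome 22 and 1.86% (1.49 to 2.29) on chromosome 20, and 0.841% (0.646 to 1.08) on chromosome 4 and 0.947% (0.692 to 1.27) on X. On chromosome 14 they were 1.63% (1.35 to 1.96), also with an interval above the 1.30% of all chromosomes. The intervals of the other chromosomes held that value. The copy number of this line along the chromosomes was not analysed here.

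**Figure D4:**
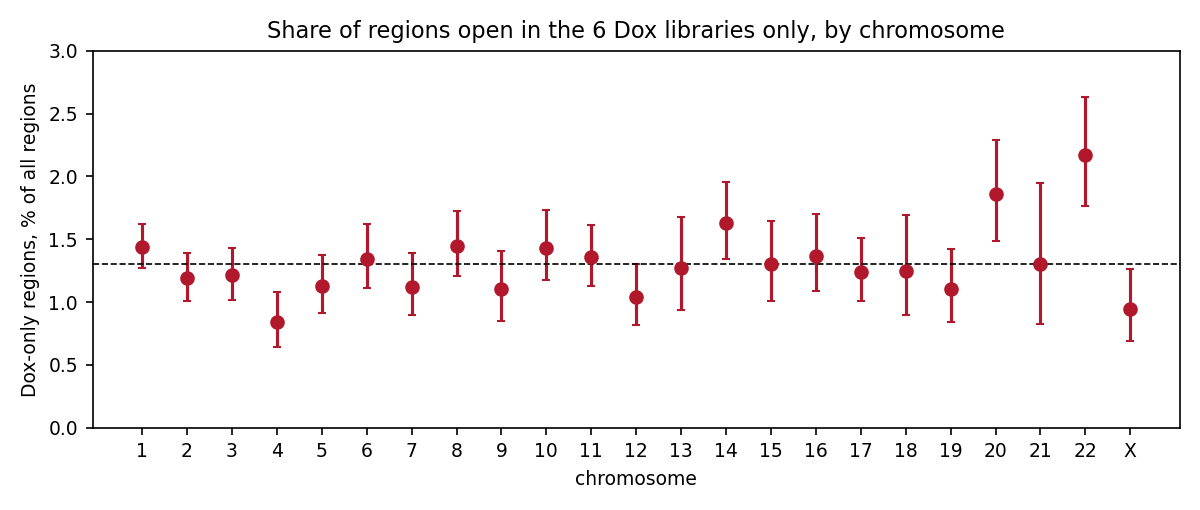
Dox-only regions as percent of all merged regions on each chromosome, with exact 95% binomial intervals; the dashed line is the genome-wide 1.30%. Chromosomes 22 (2.17%), 20 (1.86%) and 14 (1.63%) lie above the line and chromosomes 4 (0.841%) and X (0.947%) below it, with intervals that do not reach it.

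The 3 largest groups differed in how they stood across forms. A group of 8 on chromosome 1 (154802784 to 154941956) spanned KCNN3, a small-conductance calcium-activated potassium channel gene, and PMVK, which encodes phosphomevalonate kinase of the mevalonate pathway. Its median fold enrichment was 6.61 in WT Dox and 10.8 in WT Dox+E2. The Y537S medians were 13.9 and 20.9, those of K303R 4.55 and 6.29. After scaling, all 8 were higher with E2 in WT, 4 in Y537S and 5 in K303R. For 1 of the 8 that rested on the scaling, since its WT values were 13.96 without and 12.8 with E2. A group of 8 on chromosome 5 (135026263 to 135297395) began 0.907 kb from PITX1, a homeobox transcription factor gene. Its medians without and with E2 were 10.3 and 9.58 (WT), 15.4 and 17.6 (Y537S) and 8.27 and 6.71 (K303R), and 5 of the 8 were higher with E2 in WT. The largest group held 9 regions within 97.4 kb on chromosome 8 (46794879 to 46892310) and had no protein-coding gene within 100 kb. It departed from the other Dox-only regions: its medians were 15.4 and 9.58 (WT), 7.52 and 7.33 (Y537S) and 4.96 and 5.87 (K303R), with the highest value in WT Dox for 8 of its 9 regions before scaling. After scaling it was 6 of 9, with 2 highest in WT Dox+E2 and 1 in Y537S Dox+E2. In the WT Dox library, Dox and run cannot be told apart. The labels do not say how reads from repeated sequence were handled, and their part in this group was not tested.

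**Figure D5:**
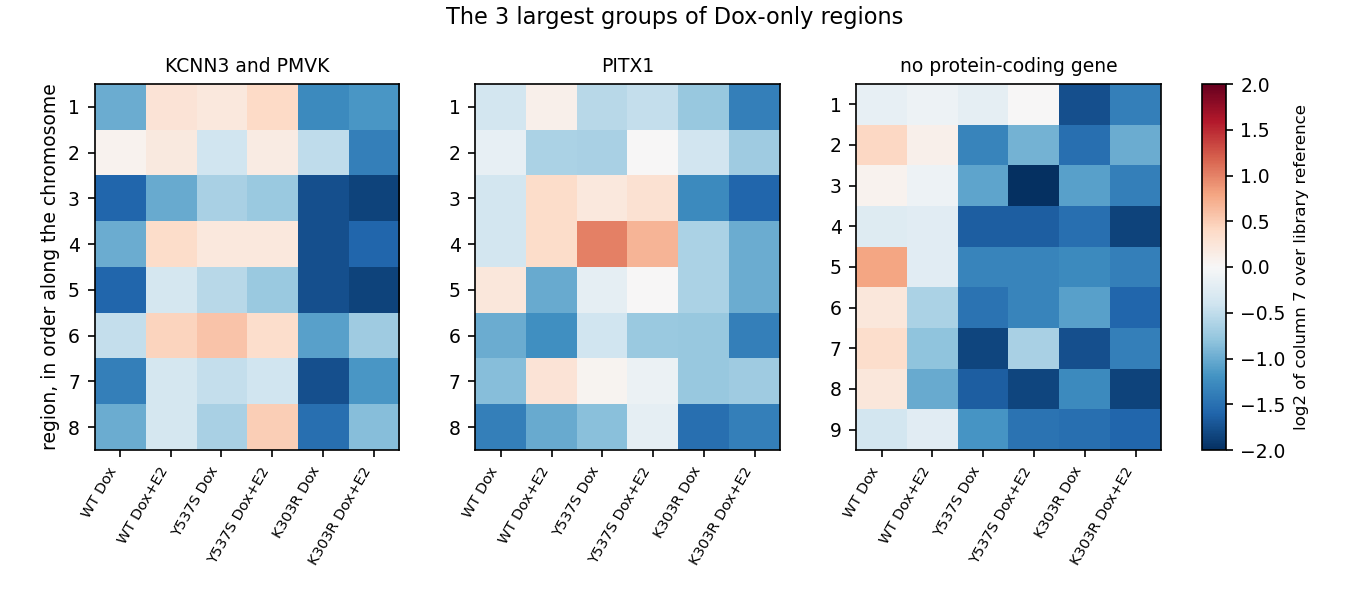
Fold enrichment relative to the library's median over regions open in all 12 libraries (log2, colour) for each region of the 3 largest groups, in order along the chromosome, in the 6 Dox libraries. The KCNN3 and PMVK group is below the reference (blue) in all 8 regions in both K303R libraries and in 7 of 8 in WT Dox, and above it (red) in 4 in WT Dox+E2, 3 in Y537S Dox and 5 in Y537S Dox+E2, while the group without a protein-coding gene is highest in WT Dox in 6 of 9 regions on this scale.

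Few Dox-only regions lay close to a gene end. Only 68 (3.14%, exact 95% interval 2.45 to 3.97) had their summit within 1 kb of either end of a protein-coding gene, against 42.1% of regions open in all 12 libraries and 10.9% of all regions. The median distance was 27.8 kb, against 3.004 kb and 21.6 kb. Inside protein-coding genes lay 1098 (50.7%), against 52.5% of all regions. Far from genes the shares were close, with 460 (21.2%) over 100 kb from a gene end against 20.4% of all regions. Gene ends here include starts and ends, since the annotation table gives spans.

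Of 19970 protein-coding genes, 2682 (13.4%) had a Dox-only region within 50 kb and 586 (2.93%) had 2 or more. The largest number was 6, at EPAS1, a hypoxia-inducible transcription factor gene, at SHANK2, a synaptic scaffold gene, and at the neighbours GPHN, which encodes gephyrin, and TMEM229B. Genes with 5 were DAPK2, ITPK1, KCNN3, MPPED1, PREX1, SCUBE1 and SMARCB1. Gene length sets part of such counts: the 6 at SHANK2 were among 324 regions, those at EPAS1 among 46.

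Known estrogen-responsive genes, in a list of 50, were among those with Dox-only regions nearby. Of the 50, 22 (44.0%) had at least 1 within 50 kb, against 13.4% of all genes, and 7 had 2 or more. These genes also have more regions of any kind around them, a median of 21 against 12. Of the regions around the listed genes 2.67% were Dox-only regions, against 1.15% around all genes. The list was written with earlier results of these data known, and its count describes the list only. CA12, a carbonic anhydrase gene, had 3 inside it. They stood at 6.61, 6.61 and 4.41 in WT Dox, at 7.98, 5.59 and 8.78 in WT Dox+E2, at 41.4, 30.1 and 22.6 in Y537S Dox, at 35.9, 34.5 and 25.7 in Y537S Dox+E2, at 4.13, 4.96 and 3.31 in K303R Dox, and at 9.23, 5.87 and 6.71 in K303R Dox+E2. All 3 were thus far taller in Y537S than in the other forms. RET, a receptor tyrosine kinase gene, also had 3 inside it, at 26.3, 33.1 and 37.6 in Y537S Dox and at 10.3, 8.08 and 9.55 in WT Dox. GREB1, an ER target and cofactor gene, had 2 inside it. They were at 7.35 and 10.3 in WT Dox, 12.8 and 15.8 in Y537S Dox and 4.13 and 4.96 in K303R Dox. The heights at these genes are unscaled. The median over regions open in all 12 libraries was itself 18.8 in Y537S Dox, 13.2 in WT Dox and 14.1 in K303R Dox. PGR, the progesterone receptor gene, had 1 inside it and 1 at 29.7 kb. The latter was at 6.61 in WT Dox, 11.98 in WT Dox+E2. In Y537S it was at 24.1 and 31.5, in K303R at 10.7 and 9.23. Y537S was again the highest form there, while the region inside PGR was at 8.08, 6.39, 11.3, 9.53, 11.6 and 10.9 across the 6 libraries and showed no such order. SERPINA1, CCN5 and THBS1 also had 2 each. No Dox-only region lay within 50 kb of TFF1, XBP1, CCND1 or RARA, which were among the 28 listed genes without one.

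The other lists gave shares on both sides of the background of 13.4%. Of 20 luminal transcription factor genes, 4 had a Dox-only region nearby (20%), with 3 inside GRHL2, an epithelial transcription factor gene. The luminal genes had a median of 23 regions of any kind nearby, against 12 for all genes. Of the regions around them 1.17% were Dox-only regions, against 1.15% around all genes. The 3 at GRHL2 were among 54 regions within 50 kb. Of 16 coregulator genes 1 had one, PPARGC1B (6.25%), and of 18 androgen receptor target genes 1 had one (5.56%). Of 19 immediate early genes 6 had one (31.6%), among them FOSL2, an AP-1 subunit gene, with 3. Of 22 calcium and cation channel genes 9 had one (40.9%), but that list was written with channel genes among the earlier results. TRPC6, CACNG4, CACNG5, CACNA1D and KCNMA1 had 2 each, and CACNG4 and CACNG5 shared 1 of theirs. The region inside CACNG5 was at 7.35 in WT Dox and 26.3 in WT Dox+E2, and at 67.7 and 63.1 in Y537S. It thus stood high in WT only with E2 and high in Y537S with and without it. Housekeeping genes, listed for comparison, had one at 6 of 20 (30%), a share close to that of the immediate early genes. Within 20 kb, 2 of these 20 had one. Of the regions around the listed genes, Dox-only regions were 2.20% (immediate early), 2.11% (channels) and 1.63% (housekeeping). They were 0.337% around androgen receptor targets and 0.291% around coregulators, against 1.15% around all genes.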

How the data were processed

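ATAC-seq peak lists of 12 MDA-MB-453 libraries were used, 1 per ER form and treatment, with coordinates on hg38. The tools listed per the submitters' processing notes are Bowtie2, Picard, MACS2, SAMtools and FastQC, with no version or setting. In the deposited lists, column 5 is an integer score, column 7 a fold enrichment (a ratio of pileup to background), columns 8 and 9 are −log10 of p and q, and the summit offset is in other units (bp), as the authors' peak caller wrote them. The fold enrichment is the authors' value and covers 1 library. Pileups were recovered from it as whole numbers, within 0.000709 of a fragment. Merging, counts and ratios were computed in Python 3.11.15 with numpy 2.4.6, pandas 2.3.3 and scipy 1.17.1, and figures were drawn with matplotlib 3.10.9; the merging, pileup and ratio steps were tested on simulated data. A ratio uses column 7 divided by the library median over the regions open in all 12 libraries, and is called past 2-fold. Intervals cover counting of regions or fragments only, and regions are not replicates. The members and gene lists were chosen with earlier results of these data known.

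Named regions followed a rule: the 10 strongest by lowest percentile; the 3 largest groups; the strongest near estrogen-responsive genes and every listed gene with 2 or more; the 5 highest and 5 lowest for E2 over all forms; the 3 most extreme per pair of forms; the 3 widest; and regions over protein-coding promoter windows. Of 188 listed genes, 187 matched the RefSeq table (GRCh38.p14), 2 of them by an older symbol. Genes with most regions nearby, the printed windows and genes named as lacking a region were chosen after their values were seen. Peak thresholds, list length, overlap rule, scaling, windows and left-out libraries were varied. The genes of 1 list are not reported here one by one.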

Additional observations from a re-analysis of the deposited data

How the results depend on the processing

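No fit with a replicate block was made, since each group was 1 library and the labels carry no replicate numbers; E2 was compared within each form, and a fit over the 3 forms as blocks was not run. E2 and form results are given here as the members' median log2 ratio minus that of all regions, a form chosen after scaling was seen to shift both medians. The 18 values under other scalings are equal by construction and show nothing of stability. Of the 100 other values, 52 stayed within the interval or 1.5-fold of the reported value and 48 moved, none with a change of sign. What scaling did turn was the order of WT and K303R in the members' own E2 median, 0.51 and 0.18 as reported, 0.15 and 0.26 by all peaks, and 0.27 and 0.28 unscaled, and the order of WT Dox+E2 and WT Dox in where members were highest, a comparison added after seeing the data. Motif alternatives over whole regions were not run, as no genome was used here. Pileup limits the single region: the exact Poisson interval of 6 fragments, 2.20 to 13.1, spans 2-fold either way.

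The number of members was 892 at a −log10 q of at least 5, 328 at 10, 326 with lists of equal length, 686 where peaks had to cover 50% of a region, 3432 without the WT form and 4786 without K303R. Leaving out 1 library gave 2196 to 3881 members, the most without K303R Dox, median widths of 666 to 719.5 bp, and shares within 100 kb of another of 40.5% to 56.1%. The median width was 792.5 bp at q of 5, 885.5 bp at 10, 870.5 bp with equal lists, and 435 bp as the mean of a member's own peaks. The share within reach of another member was 27.5% at q of 5, 14.4% with equal lists, 31% at 50 kb and 55.8% at 250 kb. The share near a gene end was 8.22% at 2.5 kb and 28.5% at 10 kb.

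At q of 5 the E2 difference was 0.21 in WT and 0.17 in K303R, and with Dox the form difference was 0.61 for Y537S over WT, −0.40 for K303R over WT and −1.07 for K303R over Y537S. With equal lists, E2 gave 0.15 in WT and 0.13 in K303R. Forms with Dox then gave 0.33, −0.38 and −0.72 in the same order, and with Dox+E2 0.11, −0.41 and −0.55. With a pileup of at least 6 in both libraries, a limit added after seeing the data, E2 in K303R gave 0.17 and K303R over Y537S gave −0.94 and −0.89. Within 20 kb, 1 luminal transcription factor gene, 0 coregulator genes, 0 androgen receptor target genes and 2 housekeeping genes had a member. Of the other lists, 18 of 50 estrogen-responsive, 7 of 22 channel and 4 of 19 immediate early genes had one within 20 kb. Within 100 kb, 2 coregulator and 4 androgen receptor target genes had one. So did 27 estrogen-responsive, 12 channel, 8 immediate early, 7 housekeeping and 5 luminal transcription factor genes. The share of all genes is given for 50 kb only, so these counts have no background beside them.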

Other observations

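MicroRNA genes were also placed against the Dox-only regions, outside the comparisons above. Of 1558 RefSeq hairpins, 40 (2.57%) had a Dox-only region within 10 kb. The MIR3122 and MIR5197 hairpins were overlapped by one.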
